A study of Mus musculus with 2 samples.

Results

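The sites described here are 8mer matches to microRNAs that are known from differentiated tissues: miR-1a-3p and miR-133a-3p of muscle, miR-9-5p of the nervous system, and miR-155-5p and miR-223-3p of blood cells. They were taken from a table of predicted microRNA sites in mouse embryonic stem cells by their sequence alone, as 8mers that begin with the reverse complement of seed bases 2 to 8 and whose first 7 bases are not among the 50 7mers of the table. This gave 4924 distinct sites in 3185 genes, of 1619021 distinct sites of all match types: 1031 for miR-1a-3p, 1512 for miR-9-5p, 870 for miR-133a-3p, 695 for miR-155-5p and 816 for miR-223-3p. The blood cell microRNA miR-142a-3p has 7mer entries in the table and so fell outside the rule, and miR-122-5p is not analysed here.

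The study mapped RNA bound by Ago2 with iCLIP, in which protein and RNA are crosslinked in living cells, the protein is pulled down and the attached RNA fragments are sequenced. There was 1 library of the clonal cell line TT-FHAgo2, which carries human Ago2 with a FLAG-HA tag, and 1 of TT-Ago2, which carries untagged human Ago2 and served as the control. In both, Ago2 was doxycycline-inducible and the only Argonaute protein of the cells, which were kept in 0.1 µg/mL doxycycline and brought to 2.5 µg/mL for 24 h. With 1 library per group there is no spread between replicates and no test between conditions, and 95% intervals below are exact (Clopper-Pearson) binomial ones that cover counting error only.

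MicroRNAs guide Argonaute proteins to messenger RNAs mainly by pairing of the seed, bases 2 to 8 from the 5′ end, with sites in 3′ UTRs, and the bound messages are repressed. An 8mer site pairs with the whole seed and has an A opposite the first base of the microRNA, and is the strongest of the usual site types. miR-1 and miR-133 are made from shared transcripts in heart and skeletal muscle, miR-9 in neural progenitors and neurons, miR-155 in activated lymphocytes and macrophages, and miR-223 in the granulocyte lineage. The listed expression of marker genes was that of embryonic stem cells. All 8 stem cell markers were listed, between 40.3 FPKM (a level per transcript length and library size, for Klf4) and 1655 FPKM (Dppa5a), whereas only 2 of 6 hepatocyte, 2 of 8 muscle and 4 of 9 blood markers were listed, all below 1 FPKM. Of 7 neural markers 5 were listed, at 0.498 to 3.95 FPKM apart from Tubb3 at 40.1 FPKM, and of 5 fibroblast markers 3, with Vim at 45.0 FPKM; their part in the results was not tested.

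The microRNAs and their 8mers are shown because the choice of sites and every value below rest on these letters. The mature sequences are from RefSeq (GRCm38.p6), 5′ to 3′, with the seed in capitals. For miR-1a-3p and miR-133a-3p the family members miR-206-3p and miR-133b-3p are shown, which carry the same seeds.
miR-206-3p: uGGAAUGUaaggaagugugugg
miR-9-5p: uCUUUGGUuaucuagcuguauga
miR-133b-3p: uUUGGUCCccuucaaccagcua
miR-155-5p: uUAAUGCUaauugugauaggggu
miR-223-3p: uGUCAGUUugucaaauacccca
The matching 8mers of the site table, 5′ to 3′ on the messenger RNA strand, follow in DNA letters.
miR-1a-3p site: ACATTCCA
miR-9-5p site: ACCAAAGA
miR-133a-3p site: GGACCAAA
miR-155-5p site: AGCATTAA
miR-223-3p site: AACTGACA

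The 8mers of the 5 microRNAs were set against the 961 other 8mers of the table that extend none of the 50 listed 7mers. These are not free of microRNA matches: of the 966 unlisted 8mers, 5 of them described here, 824 (85.3%) begin with the seed match of a mature mouse microRNA in RefSeq, as do 44 of the 50 listed 7mers. All 966 end in A. The comparison therefore sets the sites of these microRNAs beside those of many other microRNAs outside the listed 50.

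Ago2 reads lay at few of the sites. Of the 4924 sites, 334 held at least 1 read (6.78%, 6.10 to 7.52), against 7.67% of the 889324 sites of the other 8mers. Per microRNA, a read was present at 63 of 695 miR-155-5p sites (9.06%, 7.04 to 11.4), 76 of 1031 miR-1a-3p sites (7.37%, 5.85 to 9.14), 62 of 870 miR-133a-3p sites (7.13%, 5.51 to 9.04), 95 of 1512 miR-9-5p sites (6.28%, 5.11 to 7.63) and 38 of 816 miR-223-3p sites (4.66%, 3.32 to 6.34). The first 4 intervals held the share of the other 8mers or, for miR-9-5p, ended just below it, and that of miR-223-3p lay below it. The table is named for 50 top microRNAs, whose ranking is not stated, and the 8mers of its 50 listed seeds had a read at 13% of 49074 sites. For scale, the 8mer of miR-142a-3p, the blood cell microRNA that is on that list, had a read at 90 of 675 sites (13.3%, 10.9 to 16.1).

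Site support depends on where a site lies and on how strongly its transcript is expressed, so supported sites were also divided by an expected number, taken from the other 8mers at equal region and within steps of 0.5 log2 FPKM. Observed over expected support was 1.05 for miR-155-5p (0.813 to 1.32), 0.892 for miR-1a-3p (0.708 to 1.11), 0.837 for miR-9-5p (0.681 to 1.02), 0.825 for miR-133a-3p (0.637 to 1.05) and 0.582 for miR-223-3p (0.415 to 0.792). The first 4 intervals held 1, and that of miR-223-3p lay below it, with 38 sites observed and 65.3 expected. For the 5 microRNAs together 334 sites were observed and 399 expected, a ratio of 0.837 with an interval below 1 (0.752 to 0.928). Single 8mers also varied among themselves. Over the 820 other 8mers that had 100 or more 3′ UTR sites, the ratio had a median of 0.979 and a central 95% range of 0.596 to 1.59. miR-155-5p was above 509 of these 820 8mers, miR-1a-3p above 276, miR-9-5p above 210, miR-133a-3p above 200 and miR-223-3p above 17. The ratio of miR-223-3p was thus just outside the central range of the other 8mers, and the other 4 were inside it. The 46 listed 8mers with as many sites had a median of 1.34, and that of miR-142a-3p was 1.5 (1.22 to 1.81).

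**Figure D1:**
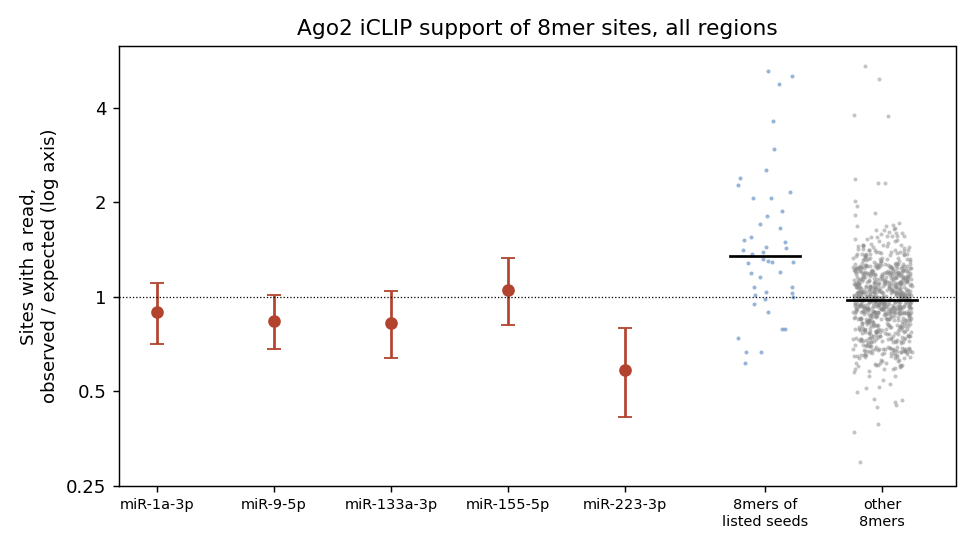
Observed over expected support (sites with at least 1 read over the number given by other 8mers at equal region and expression; log axis) for the 8mer of each microRNA, with 95% binomial intervals, beside single 8mers of listed seeds (46 points) and other 8mers (820 points); black lines are medians. The intervals of 4 microRNAs hold 1, and miR-223-3p, at 0.582, lies below it.

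The 3′ UTR, where microRNA sites act most often, held 2114 of the sites (42.9%), and 239 of them had a read (11.3%, 9.99 to 12.7), against 12.3% for the other 8mers and 21.1% for the 8mers of listed seeds. The share was 13.8% for miR-155-5p (51 of 369), 12.5% for miR-1a-3p (59 of 472), 10.9% for miR-133a-3p (38 of 348), 10.8% for miR-9-5p (58 of 538) and 8.53% for miR-223-3p (33 of 387, 5.94 to 11.8). Adjacent microRNAs in this order had overlapping intervals. By this share miR-223-3p was above 83 of the 820 other 8mers, and so inside their central 95% range of 6.90% to 20.3%. In coding sequence 81 of 1261 sites had a read (6.42%, 5.13 to 7.92), against 8.82% of sites of the other 8mers, and miR-223-3p again had the lowest share (5 of 156, 3.21%). In 5′ UTRs the count was 10 of 169 (5.92%), against 7.19%. Long noncoding RNAs held 1199 sites, of which 2 had a read (0.167%, 0.0202 to 0.601), against 0.524%, and pseudogenes held 181, of which 2 had a read, against 1.38%.

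Support was higher in more strongly expressed transcripts, for the 5 microRNAs together as for the other 8mers. In transcripts of 0.1 to 1 FPKM, 5.43% of 571 member 3′ UTR sites had a read (3.72 to 7.62), against 4.86% for the other 8mers. From 1 to 5 FPKM the shares were 11.1% (8.78 to 13.9) and 10.0%, from 5 to 20 FPKM 13.1% (10.5 to 16.0) and 16.4%, and at 20 FPKM and over 18.7% (14.6 to 23.3) and 23.9%. Above 5 FPKM the intervals of the 5 microRNAs together thus lay below the share of the other 8mers. The shares of the listed seeds were 9.08%, 17.7%, 29.0% and 36.1% in the same order. Single microRNAs varied. From 5 to 20 FPKM the share was 18.5% for miR-9-5p, 15.4% for miR-155-5p, 10.7% for miR-1a-3p, 10.5% for miR-223-3p and 9.47% for miR-133a-3p. At 20 FPKM and over it was 25.5% for miR-155-5p, 21.5% for miR-1a-3p, 17.2% for miR-133a-3p, 16.4% for miR-223-3p and 13.5% for miR-9-5p. The shares of miR-9-5p in the former step (12.2 to 26.2) and miR-155-5p in the latter (14.7 to 39.0) were above those of the other 8mers. Both intervals held the share of the other 8mers. For miR-9-5p the interval at 20 FPKM and over was 6.68 to 23.5, which overlapped that of the former step.

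**Figure D2:**
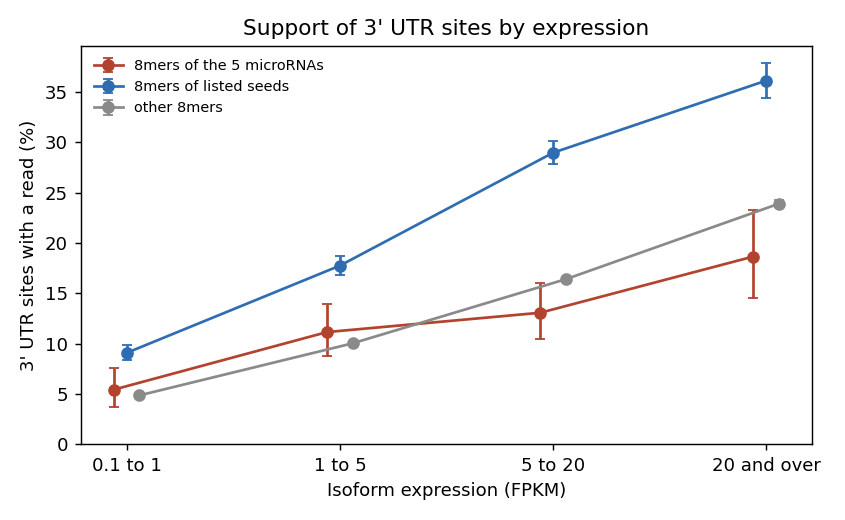
Share of 3′ UTR sites with at least 1 read (percent) by isoform expression in FPKM, for the 8mers of the 5 microRNAs together, the 8mers of listed seeds and the other 8mers; bars are 95% binomial intervals. Sites of the 5 microRNAs run from 5.43% to 18.7% and stay close to or below the other 8mers, while listed seeds run from 9.08% to 36.1%.

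Where reads were present they were few. Of the 334 supported sites, 228 (68.3%) held 1 read, 51 held 2, 34 held 3 or 4 and 21 held 5 or more. At least 2 reads were present at 106 of 4924 sites (2.15%), against 2.35% of the sites of the other 8mers, and in 3′ UTRs at 87 of 2114 (4.12%), against 4.3%. Among the other 8mers 69.4% of supported sites held 1 read, and among the listed seeds 56.0%. Summed site by site, the 4924 sites held 613 reads, against 815 given by the other 8mers at equal region and expression, a ratio of 0.752. Reads at overlapping sites enter this sum at each site, so it is not a number of distinct reads among the 789000 of the library. Per microRNA this ratio of reads was 0.880 for miR-1a-3p, 0.797 for miR-133a-3p, 0.792 for miR-155-5p, 0.719 for miR-9-5p and 0.552 for miR-223-3p. Without the site with the most reads of each it was 0.807, 0.683, 0.746, 0.674 and 0.457 in the same order. The labels do not say whether duplicate reads were removed, and a few sites carry many of the reads. The most at 1 site was 18 for miR-133a-3p, against 263 for the other 8mers and 322 for the listed seeds.

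Enriched clusters were called by the authors on the tagged library over the untagged one at p under 0.05. The clusters overlapped 18 of the 4924 sites by 1 nt or more (0.366%, 0.217 to 0.577). The share was 0.394% for the sites of the other 8mers and 1.59% for those of listed seeds. In 3′ UTRs the clusters overlapped 15 of 2114 sites (0.710%), against 0.84% and 3.22%. The 18 were 5 sites each of miR-1a-3p and miR-9-5p, 3 each of miR-133a-3p and miR-223-3p and 2 of miR-155-5p. With counts this small the intervals of the single microRNAs were wide, and each held the share of the other 8mers. The untagged numbers given below are those that the authors' log2 enrichment implies, and the labels do not say whether they were scaled for depth.

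The site with the most reads was that of miR-133a-3p in the 3′ UTR of Enc1, which encodes an actin-binding kelch protein, at chr13:98021536-98021543 (mm9, plus strand). It held 18 reads at 38.4 FPKM and lay in a cluster with 13 reads of the tagged and 2 of the untagged library. The deposited exact binomial p of this cluster was 0.0037, and it compares libraries, not replicated conditions. Among the sites given with coordinates, those of Rasa2, Ahcyl1 and Zfp354c are on the minus strand and the others on the plus strand. Site reads and cluster reads are separate columns of the authors and need not be equal. The next miR-133a-3p sites were in coding sequence: 10 reads in Mll5, a chromatin regulator (chr5:23008023-23008030), and 9 in Cct6a, a subunit of the cytosolic chaperonin (chr5:130300294-130300301). Their clusters held 10 and 9 tagged reads against 0 untagged, so at least 3.33-fold and 3-fold with a floor of 3 counts per cluster.

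The highest miR-9-5p site was in the 3′ UTR of Bcl2l11, which encodes the pro-apoptotic protein Bim, at chr2:127986111-127986118, with 10 reads and a cluster of 11 tagged reads against 0 (at least 3.67-fold). Overlapping entries of the table place it at the end of a CA repeat, of which the last bases are shown, with the 8mer in capitals.
Bcl2l11, miR-9-5p site: cacacacacacACCAAAGA
It was followed by a coding site in Hspa5, the main chaperone of the endoplasmic reticulum (9 reads, chr2:34629398-34629405, cluster of 6 against 0). Clusters of 5 against 0 also overlapped the miR-9-5p sites of Pou2f1, a POU-domain transcription factor gene, and Rbms1, an RNA-binding protein gene. Each site had 5 reads.

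For miR-1a-3p the sites with the most reads were in 3′ UTRs of Rasa2, a negative regulator of Ras (13 reads, chr9:96441951-96441958), Jarid2, a partner of Polycomb repressive complex 2 (12 reads, chr13:45016198-45016205), and Fam73b (9 reads, chr2:30240842-30240849). Their clusters held 9 tagged reads against 0 untagged, 8 against 1 and 8 against 0. A cluster of 20 against 0 covered the site of E2f5, a repressive member of the E2F family (8 reads at the site, chr3:14606191-14606198), and one of 8 against 0 the site of C77080 (1 read).

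For miR-223-3p the highest were F3, the gene of tissue factor (13 reads, chr3:121437715-121437722), Rrm2, a subunit of ribonucleotide reductase (7 reads, chr12:25398838-25398845), and Ahcyl1 (5 reads, chr3:107468496-107468503), all in 3′ UTRs, with clusters of 11 against 1, 7 against 0 and 8 against 0. For miR-155-5p they were Zfp354c, a zinc finger gene (6 reads, chr11:50625819-50625826, cluster of 5 against 0), and Necap1 and Brap with 5 reads each and no cluster. No miR-155-5p site held more than 6 reads.

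Many of the well-read sites had a listed seed match close by. Of the 21 sites with at least 5 reads, 13 had a listed 7mer or 8mer starting within 50 nt on the same strand. In 8 of the 13 such a match held at least as many reads as the 8mer itself. Neither this last count nor a count of which seeds the neighbours match was made for the other 8mers. Whether the same reads were counted at both matches was not tested. The most frequent was the match of the miR-17 family, GCACTTT or GCACTTTA, which had the most reads of such neighbours at, among others, Rasa2 (10 reads, 18 nt upstream), F3 (16 reads), E2f5 (22 reads, 32 nt upstream), Prex1 (6 reads) and Rbms1 (5 reads). At Jarid2 it was GTGCAAT of miR-25, miR-32 and miR-92 (8 reads, 13 nt upstream), at Fam73b TTTGCAC of miR-19 (9 reads), at Mll5 AGCACTT of the miR-291a and miR-302 family (10 reads) and at Rrm2 ACTGTGA of miR-27 (7 reads). Where neighbours had equal reads, the longer match was named. In F3 overlapping entries of the table give 16 bases in which GCACTTT, in lower case after the first base, ends directly before the miR-223-3p 8mer, in capitals. The same bases begin with AGCACTT, the match of the miR-291a and miR-302 family.
F3, miR-223-3p site: agcactttAACTGACA
At Enc1, Bcl2l11, Cct6a, Hspa5, Zfp354c, Necap1, Pou2f1 and Ahcyl1 no listed 7mer or 8mer started within 50 nt.

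**Figure D3:**
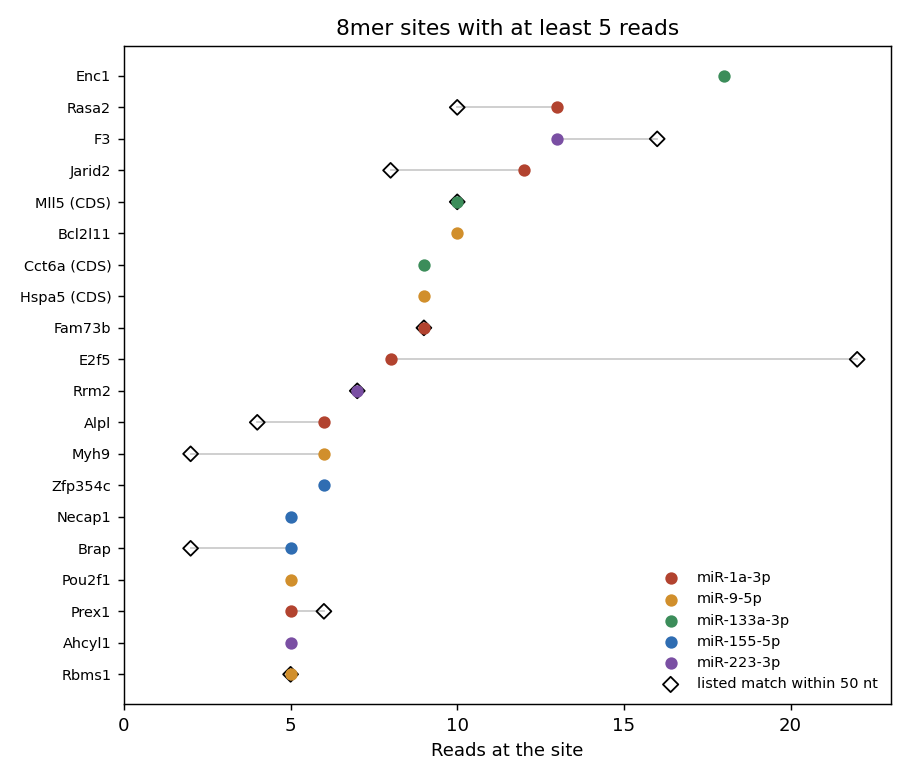
Reads at each of 20 of the sites with at least 5 reads (filled points, coloured by microRNA) and at the listed 7mer or 8mer with the most reads within 50 nt (open diamonds); genes run down the page, and CDS marks coding sites. At 12 sites a diamond is present, and at 7 of these it lies on or to the right of the filled point.

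Listed matches lay near the other 8mers at similar rates. A listed match within 50 nt was present at 1466 of the 4924 sites of the 5 microRNAs (29.8%), against 32.9% of the sites of the other 8mers, and among sites with at least 5 reads at 13 of 21 (61.9%), against 60.7% of 4506. Sites with such a neighbour had a read in 9.14% of cases (7.71 to 10.7), and those without in 5.78% (5.03 to 6.61). For the other 8mers the shares were 9.79% with and 6.64% without. Of the 613 reads at sites of the 5 microRNAs, 280 (45.7%) were at sites with a neighbour, against 50.8% for the other 8mers. In 3′ UTRs, support with and without a neighbour was 17.6% and 10.3% for miR-1a-3p, 12.1% and 6.67% for miR-223-3p, 15.1% and 13.2% for miR-155-5p, 12.0% and 10.1% for miR-9-5p and 10.8% and 11% for miR-133a-3p, and each pair of intervals overlapped. The part of neighbouring sites in the reads of a given 8mer was not tested.

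**Figure D4:**
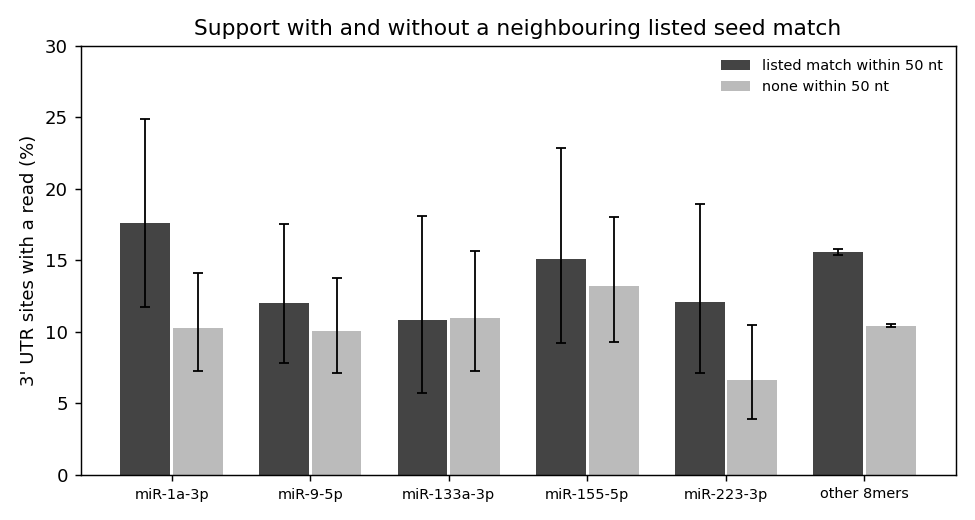
Share of 3′ UTR sites with at least 1 read (percent) where a listed 7mer or 8mer starts within 50 nt on the same strand (dark bars) and where none does (light bars), for each microRNA and the other 8mers, with 95% binomial intervals. The other 8mers stand at 15.6% and 10.4%, and the 2 intervals overlap for every microRNA.

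Taken as 1 set, the sites of these microRNAs were more conserved than those of the other 8mers, while the interval of miR-223-3p held the share of the other 8mers. A phastCons score, which runs from 0 to 1 with sequence conservation, of at least 0.9 was given to 756 of 2114 3′ UTR sites (35.8%, 33.7 to 37.8), against 19% for the other 8mers and 29.1% for the listed seeds. The share was 51.7% for miR-9-5p (47.4 to 56.0), 35.1% for miR-133a-3p, 34.1% for miR-1a-3p, 29.0% for miR-155-5p and 22.7% for miR-223-3p (18.7 to 27.2). Over all 5 microRNAs, conserved sites carried a read more often than the rest: 124 of 756 (16.4%, 13.8 to 19.2) against 115 of 1358 (8.47%, 7.04 to 10.1). The same step was present at the other 8mers, with 18.6% of conserved and 10.8% of remaining sites. Conserved and remaining sites stood at 19.9% and 8.68% for miR-1a-3p and 15.8% and 5.38% for miR-9-5p, with intervals that did not overlap. They stood at 15.6% and 8.41% for miR-133a-3p, 16.8% and 12.6% for miR-155-5p and 12.5% and 7.36% for miR-223-3p, with overlapping intervals. The interval of the conserved sites of the 5 microRNAs held the share of the other 8mers and lay below that of listed seeds (33.1%, 31.9 to 34.3).

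**Figure D5:**
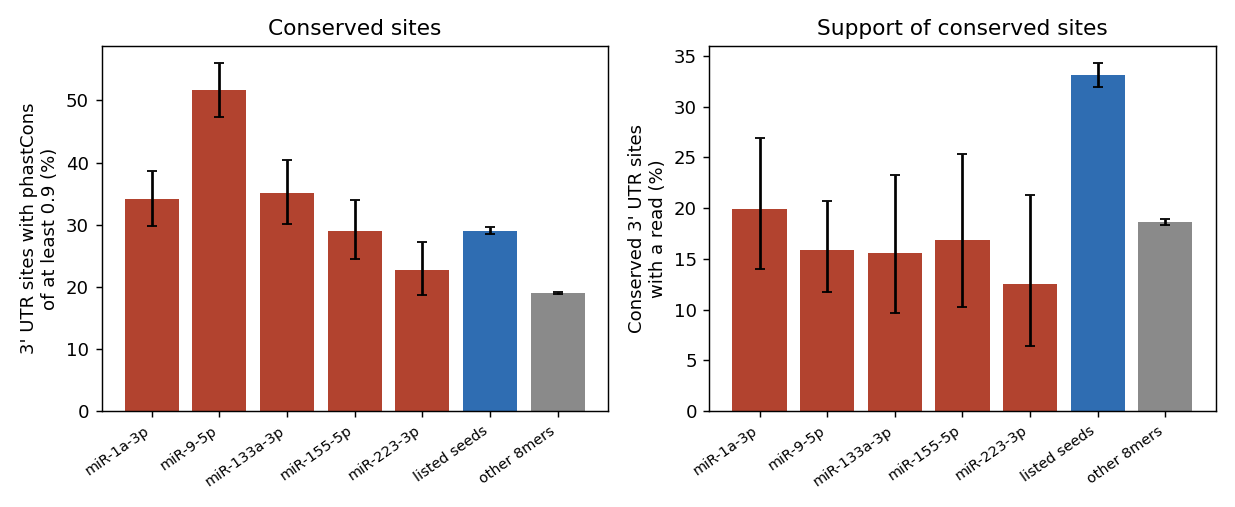
Left, share of 3′ UTR sites with a phastCons score of at least 0.9 (percent); right, share of those conserved sites with at least 1 read (percent), for each microRNA, the listed seeds and the other 8mers, with 95% binomial intervals. miR-9-5p has the most conserved sites of the 5 microRNAs (51.7%), while support of conserved sites is 12.5% to 19.9% for the 5 microRNAs and 33.1% for listed seeds.

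Textbook targets of the 5 microRNAs were looked up one by one. Of 81 listed gene names 61 were in the table, and 26 held 38 8mer sites of their own microRNA. Reads were present at 8 of the 38 sites (21.1%, 9.55 to 37.3), against 4.92 expected at equal region and expression (ratio 1.63, 0.738 to 2.88). Of the 38 sites 34 were conserved, with a phastCons score of at least 0.9, and the expected number was not matched on conservation. At 6 of the 8 sites with reads there was 1 read. The muscle targets gave no read: 0 at both miR-1a-3p sites of the gap junction gene Gja1, listed at 51.8 FPKM, 0 in Twf1, an actin-binding protein gene, at 40.1 FPKM, and 0 at the miR-133a-3p sites of Ptbp2, a neural splicing factor gene, and Whsc2. All of these are 3′ UTR sites. At 20 FPKM and over, 23.9% of 3′ UTR sites of the other 8mers had a read, so that no read at a single site is the more frequent case there. miR-9-5p had 15 sites in listed targets, 2 of them coding, in Hes1 and Onecut1. There were 8 in the 3′ UTR of Onecut2, a neural and hepatic transcription factor gene listed at 0.231 FPKM, and none of the 8 had a read. A single read lay at the coding site of Hes1, a Notch effector gene, while Cdh1 and Sirt1, at 87.7 and 28.9 FPKM, and Onecut1 had none.

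miR-155-5p had 11 sites in 10 listed targets, with a read at 5 of them. Jarid2, known as a target of miR-155, held 4 reads at each of its 2 miR-155-5p sites, chr13:45015462-45015469 and chr13:45016235-45016242. Only the former was overlapped by an enriched cluster, at the edge of that cluster. Single reads lay at Socs1, a cytokine signalling inhibitor gene, Cebpb, a myeloid transcription factor gene, and Tab2, an adaptor of TAK1. None was found at Bach1, Inpp5d, Sfpi1, Arid2 or Picalm. The miR-223-3p targets had 1 read at 1 of the 2 sites of Fbxw7, a ubiquitin ligase subunit gene, and 0 at Parp1, Rasa1, Rhob, Smarcd1 and Sp3. Parp1, with a coding site, was listed at 152 FPKM and Smarcd1 at 57.5 FPKM.

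Jarid2 carried sites of both miR-155-5p and miR-1a-3p in 1 3′ UTR, and all 3 had reads. The gene was listed at 70.3 FPKM. Its upstream miR-155-5p site lay at the edge of a cluster with 13 tagged reads and 1 untagged (deposited exact binomial p = 0.0009). The miR-1a-3p site followed 736 nt downstream and the second miR-155-5p site 37 nt after that, with 12 and 4 reads. GTGCAAT, with 8 reads, lay 13 nt upstream of the miR-1a-3p site and 50 nt upstream of the second miR-155-5p site. No enriched cluster overlapped that second site. No other gene held 3 sites with at least 4 reads each, and Jarid2 was singled out after its values were seen.

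Some genes held sites of several of the 5 microRNAs. Of 3185 genes, 2403 held 1 site, 553 held 2 and 229 held 3 or more, and 654 held sites of at least 2 of the microRNAs. A part of this is sequence overlap, since the 8mers of miR-133a-3p and miR-9-5p share 6 bases. They overlapped at 101 places, with the joint sequence GGACCAAAGA, and all 101 pairs had equal reads. Of these places, which make up 101 of the 870 miR-133a-3p sites, 4 held a read, 1 in each of 0610037L13Rik, Abl1, Apba3 and Igsf9. Reads were found at sites in 312 genes, 17 of which had at least 2 supported sites. Of the 17, 0610037L13Rik, Abl1, Apba3 and Igsf9 were counted only through their overlapping sites. Genes with several sites or several supported sites were not counted for the other 8mers. Besides Jarid2, the 17 included Pou2f1, with 5, 1, 1 and 1 reads at 4 sites of miR-9-5p, miR-223-3p and miR-155-5p. Also among them was Myh9, a nonmuscle myosin heavy chain gene, with 6, 2 and 1 reads at sites of miR-9-5p, miR-133a-3p and miR-223-3p.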

How the data were processed

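Bowtie, TopHat and the builds mm9 and NCBIM37 are named, without versions or roles, per the submitters' processing notes; no label or header names the cluster caller. Site coverage is in rpm made by the authors: each of the 1641948 deposited values (100%) was, to within 0.001, a whole number of steps of 1.27 rpm, which gives read numbers out of 789000. FPKM and the log2 coverage are the authors' deposited values. PhastCons is a score per the file headers. Cluster peak height is a deposited signal. Untagged numbers were recovered from the authors' log2 enrichment, (tagged + 1) over (untagged + 1), which matched all 6211 clusters within 0.006.

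Sites were made distinct by position and strand, which removed 73 repeats. Expected support is the mean of the 961 other 8mers per region and 0.5 log2 FPKM. A site counted as in a cluster if they shared 1 nt or more, strand included. Of the clusters 5993 entered, without 216 that span a junction and 2 of over 200 nt. No count model was run, since there is 1 library per group. Named are the 3 sites with the most reads per microRNA, up to 5 sites in clusters and listed targets with an 8mer; other genes were chosen after their values were seen, and a few genes the rule names are not reported here. Members, gene lists and comparisons were chosen with earlier results of these data known. Coordinates are 1-based on mm9. Python 3.11.15, pandas 2.3.3 and scipy 1.17.1 were used. Alternatives varied the support threshold, region, expression minimum, control set, neighbouring matches and counting of sites.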

Additional observations from a re-analysis of the deposited data

How the results depend on the processing

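Observed over expected support kept its place within the 95% interval of the reported value in 73 of 75 alternatives, 5 of which (control 8mers that end in A) could not move it, since all do. Its range over 15 alternatives was 0.813 to 1.20 for miR-155-5p, 0.669 to 1.08 for miR-1a-3p, 0.788 to 0.917 for miR-9-5p, 0.713 to 0.884 for miR-133a-3p and 0.528 to 0.686 for miR-223-3p. The last 3 microRNAs were below 1 in all 15, which reuse the same reads and sites. Of the 820 other 8mers, 439 were also below 1 at the main setting. The exceptions among the 75 were sites with no listed match within 100 nt, chosen after seeing the data, at 0.669 for miR-1a-3p and 0.813 for miR-155-5p. Also chosen after seeing the data, sites with no listed match within 50 nt had a ratio of reads to control of 0.722 for miR-1a-3p, 0.991 for miR-133a-3p and 0.973 for miR-155-5p. For miR-9-5p it was 0.806 and for miR-223-3p 0.483, both within the interval of the reported value. With at least 2 reads, which fewer sites reach by construction, the share of 3′ UTR sites was 5.72% for miR-1a-3p, 3.16% for miR-9-5p, 4.02% for miR-133a-3p, 4.88% for miR-155-5p and 2.84% for miR-223-3p, against 4.30% for the other 8mers. At 5 FPKM and over it was 14.8% for miR-1a-3p, 16.7% for miR-9-5p, 12.6% for miR-133a-3p, 18.6% for miR-155-5p and 12.3% for miR-223-3p, against 19%. For moves not set by construction the cause was not tested. The cluster shares moved by less than their intervals in all 10 alternatives. No paired analysis was possible because there is 1 library per group. Depth limits single sites: 5 tagged reads are the fewest in a cluster, and 21 of the 4924 sites held 5 reads or more.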
